A study of Rattus norvegicus with 22 samples.

Results

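Plasma proteins secreted by hepatocytes were examined here through 53 genes chosen by name: carriers, apolipoproteins, coagulation and fibrinolysis proteins, protease inhibitors of the antiproteinase and inter-alpha-trypsin inhibitor families, and complement proteins. A gene was included where a probe set of the array carried its symbol and no other. This gave 48 of the 53 listed genes, of 18166 genes with a probe set of their own. The other 5 (Apoa1, Apoc3, Tf, Itih2 and Cfi) were not analysed here.

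The samples were 22 livers of female Crl:CD(SD) rats, an outbred stock, given as 12 weeks old in the sample labels and as 10 to 14 weeks old in the growth protocol. A single intraperitoneal dose of 50 mg/kg GSK932121A, an inhibitor of complex III of the mitochondrial electron transport chain, was given to the rats behind 10 of the arrays, whose livers were taken after 5 hours. The rats behind the other 12 arrays received the vehicle by the same route at the same volume, 10 mL/kg. Both formulations held mannitol, hydroxypropylmethylcellulose and sodium dodecyl sulphate, so the control is not an uninjected liver, and the labels give no time for it. The study dosed 12 rats per group and left out 2 treated rats for low plasma exposure. RNA came from the median lobe, 1 array per rat, and values are log2 expression after RMA. Array medians lay between 4.73 and 4.85, and the number of arrays limits the precision.

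Hepatocytes make most of the protein in plasma and release it through the secretory pathway. Many of these genes respond to inflammation: interleukin-6, acting through STAT3 and C/EBP factors, raises the acute-phase proteins such as fibrinogen and haptoglobin, while transcripts of albumin, transthyretin and other so-called negative acute-phase proteins are lowered. In the resting liver the same genes are held at high levels by hepatocyte transcription factors such as HNF1 and HNF4.

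Plasma protein genes differed little between the groups, and the few that passed the test were all lower after GSK932121A. Of the 48 genes, 4 fell at an adjusted p under 0.05 (limma, adjusted over all genes): F13b, Apoc1, Apoh and Plg. Over all genes, 7.05% fell by the same rule. None of the 48 rose in limma, against 5.31% of all genes. At an unadjusted p under 0.05 in limma, 7 of 48 were lower and 1 was higher (Apoa4), against 2523 and 1831 of the 18166 genes. By the Welch test 8 of 48 fell and 0 rose, against 6.36% and 4.75% of all genes. By the Wilcoxon rank sum test 7 fell and 0 rose, against 6.54% and 4.79% of all genes. The differences of the 48 genes ran from -0.37 to 0.26 on the log2 scale, with a median of -0.061. The median was -0.0088 over all genes but -0.055 over the 4199 genes whose log2 values averaged at least 7. All 48 members belong to these bright genes, and by the median they lay close to them. In the same limma fit, 551 of the 4199 bright genes fell and 414 rose. At an unadjusted p under 0.05 in limma, 1002 were lower and 610 higher. Welch and rank sum calls were not counted over bright genes alone. Differences above 1.2-fold were found in 2 of the 48 members, compared with 21.8% of the bright genes. The median absolute difference was 0.082 for the members and 0.129 for the bright genes.

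The direction shared by most members depended on the scaling of the arrays. As deposited, 36 of 48 differences (75%) were below 0, compared with 61.8% of the genes averaging at least 7, and with cyclic loess normalisation 28 of 48 were, with a median of -0.013. The 4 calls were lost when 5 surrogate variables for hidden factors, which held 45.5% of the variance of group, were added to the fit, while the differences stayed below 0. They were then -0.28 for F13b, -0.23 for Apoc1, -0.15 for Apoh and -0.14 for Plg (limma, adjusted p = 0.0942, 0.204, 0.206 and 0.276). Far fewer genes passed in that fit, in which 1.48% of all genes fell, or 269 in place of 1280. F11, the zymogen of a contact-system protease, was the 1 member of 48 called there, a share near that of all genes (difference -0.29, adjusted p = 0.0324).

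The members were measured with little scatter. Their SD among the vehicle arrays had a median of 0.106 and ran from 0.033 for Alb to 0.354 for F7. The median was 0.198 over all genes and 0.176 over the genes averaging at least 7. The 95% confidence interval of the difference lay within 1.5-fold in either direction for 48 of 48 members, compared with 92.2% of all genes, and within 1.2-fold for 33 of 48, compared with 43.3% of all genes. When testing was restricted to the 4199 brighter genes, 29.0% of these were called and 17.3% fell. In that fit 6 of the 48 members fell: the 4 above, Masp2 (adjusted p = 0.0196) and Serpinf2 (adjusted p = 0.0382). A limit is that 20 of the 48 members had a mean of 12 or more, while the highest value on any array was 13.8. Both the differences and the scatter of the brightest members may thus be compressed near the top of the scale. In whole liver, fewer cells of a type and less RNA per cell cannot be told apart.

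**Figure D1:**
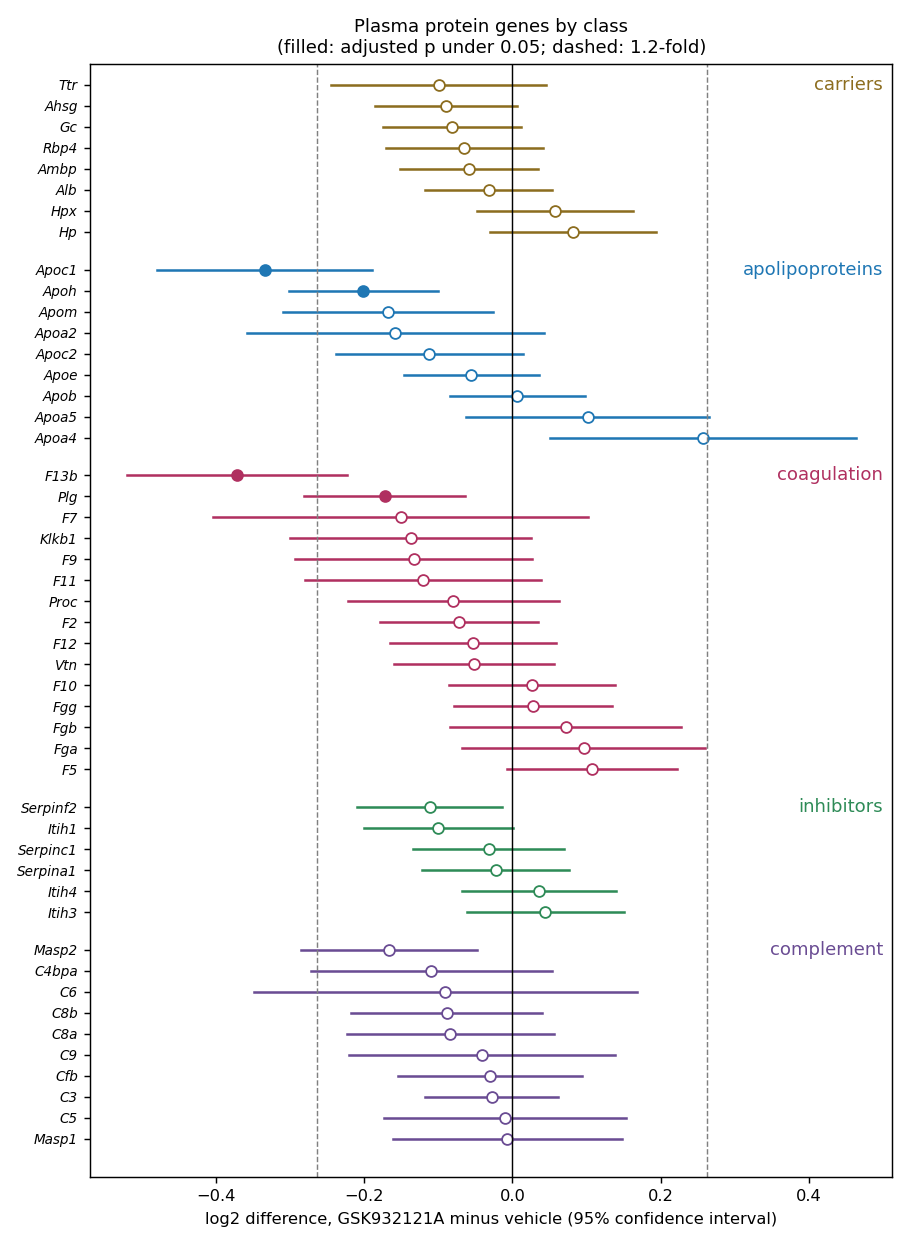
Log2 difference between GSK932121A and vehicle for each of the 48 genes (points) with its 95% confidence interval from limma (lines), grouped and coloured by class. Filled points are the 4 genes with an adjusted p under 0.05 (F13b, Apoc1, Apoh and Plg), and the dashed lines mark a 1.2-fold difference, which 2 of the 48 estimates exceeded.

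The largest fall was that of F13b, which encodes the carrier subunit of coagulation factor XIII, the transglutaminase zymogen whose active form crosslinks fibrin. Vehicle arrays ran from 9.38 to 9.79 (median 9.65) and GSK932121A arrays from 8.97 to 9.55 (median 9.22), in log2 values. The treated arrays were thus mostly lower, with 7 of 10 below every vehicle array and 10 of 10 below the vehicle mean. The mean fell from 9.63 ± 0.14 (SD, n = 12) to 9.26 ± 0.18 (SD, n = 10), a 1.29-fold change (log2 difference -0.37 ± 0.07, SE; limma, adjusted p = 0.000788).

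Apoc1 encodes apolipoprotein C-I, a small exchangeable protein of triglyceride-rich and high-density lipoproteins that activates the cholesterol-esterifying enzyme LCAT. Its vehicle arrays ran from 12.30 to 12.53 (median 12.41) and its treated arrays from 11.67 to 12.32 (median 12.11). Treated arrays were spread wider than vehicle arrays, and 9 of 10 lay below every vehicle array, the lowest being replicates 13 (11.67) and 14 (11.80). The mean was 12.41 ± 0.08 after vehicle and 12.07 ± 0.21 after GSK932121A (SD), a 1.26-fold fall (log2 difference -0.33 ± 0.07, SE; limma, adjusted p = 0.00179).

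Apoh encodes beta-2-glycoprotein I, a phospholipid-binding protein that takes part in coagulation. Its values ran from 12.20 to 12.43 (median 12.31) after vehicle and from 11.97 to 12.25 (median 12.10) after GSK932121A. The groups overlapped in 1 treated array only, with the other 9 below every vehicle array. Apoh fell 1.15-fold, by 0.20 ± 0.05 on the log2 scale (SE; limma, adjusted p = 0.00605). Dropping any 1 of the 22 arrays kept the calls of F13b, Apoc1 and Apoh, whose highest adjusted p in limma were then 0.00212, 0.0044 and 0.0144.

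Plg encodes plasminogen, the zymogen of the fibrin-degrading protease plasmin. Its vehicle arrays ran from 11.86 to 12.25 (median 12.10) and its treated arrays from 11.84 to 12.11 (median 11.91). The ranges overlapped widely, since only 1 treated array was below every vehicle array, although 9 of 10 lay below the vehicle mean. Plg fell 1.13-fold, by 0.17 ± 0.05 (SE; limma, adjusted p = 0.0311). This call was lost with cyclic loess normalisation (difference -0.13, adjusted p = 0.104) and without vehicle replicate 1 (adjusted p = 0.0529) or 2 (0.0558) or GSK932121A replicate 13 (0.0584) or 14 (0.0529). Without each of those 4 arrays the difference was nearly as large, at -0.16, -0.16, -0.16 and -0.17. For none of the 48 genes did all treated arrays lie below all vehicle arrays, a pattern that 0.281% of all genes showed.

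**Figure D2:**
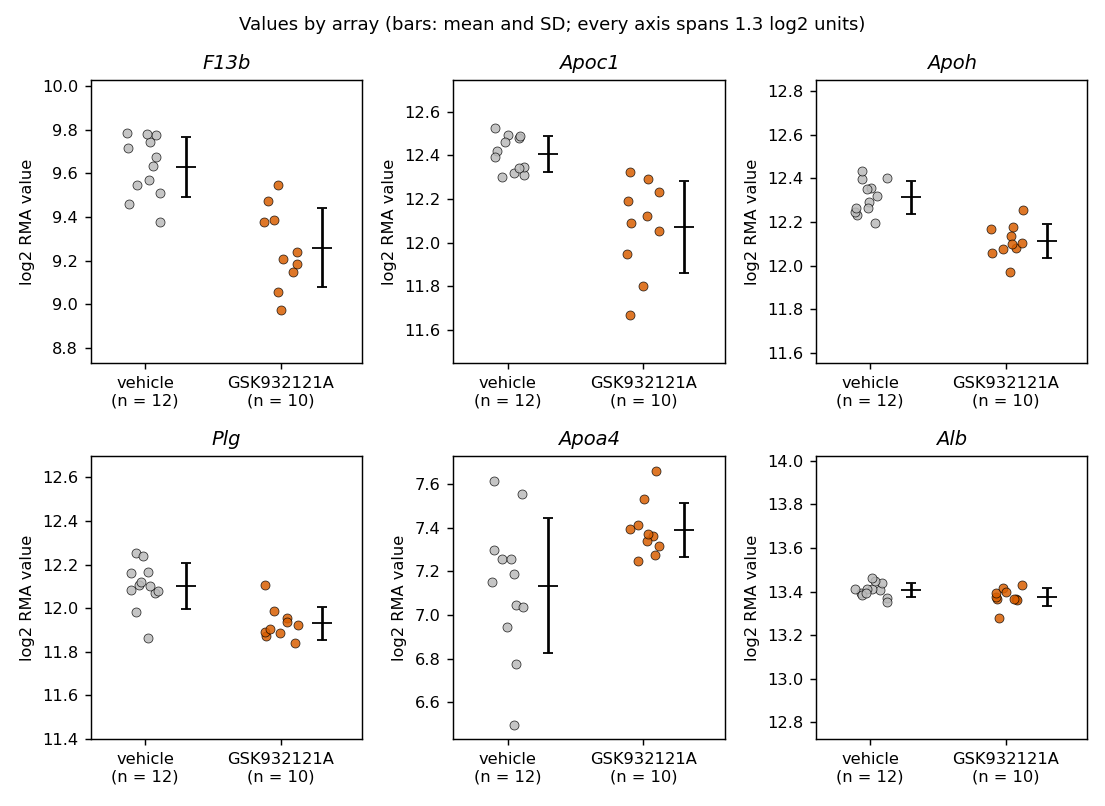
Log2 RMA values in each array (points) for the 4 genes that fell, for Apoa4 and for Alb, with mean and SD at the side of each group (n = 12 vehicle and 10 GSK932121A). Every axis spans the same number of log2 units, so the shifts of F13b and Apoc1 (-0.37 and -0.33) can be set beside the narrow scatter of Alb, whose groups differed by -0.032.

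Promoter sequences of the 2 genes with the largest falls are shown first, since their upstream regions can be set beside those of Alb and the fibrinogen genes, which did not pass. They come from RefSeq, build GRCr8, and hold the 250 bases before the annotated start: F13b at chr13:53681389-53681638, plus strand, and Apoc1 at chr1:88478306-88478555, minus strand (the first of 2 listed starts). Capitals mark matches, on either strand, to words that belong to known liver factors. The core of the interleukin-6 response element was searched as CTGGGAA and the STAT motif as TTCNNNGAA. The C/EBP motif was searched in a loose form, TTNNGNAA, which also covers its stricter form. For HNF1, a homeodomain factor of hepatocytes, the searched word was GTTAAT, and the box bound by the TATA-binding protein was searched as TATAAA. A match describes letters and shows no binding.
F13b: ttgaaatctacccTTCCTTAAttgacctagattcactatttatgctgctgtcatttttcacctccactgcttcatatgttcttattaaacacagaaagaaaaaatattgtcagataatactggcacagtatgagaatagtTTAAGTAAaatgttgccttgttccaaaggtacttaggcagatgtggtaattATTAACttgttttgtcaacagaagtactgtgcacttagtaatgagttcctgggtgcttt
Apoc1: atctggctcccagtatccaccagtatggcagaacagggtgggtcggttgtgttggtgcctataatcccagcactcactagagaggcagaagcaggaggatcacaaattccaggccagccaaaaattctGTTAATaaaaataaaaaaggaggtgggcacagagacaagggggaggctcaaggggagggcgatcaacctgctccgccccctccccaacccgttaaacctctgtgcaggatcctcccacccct

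F13b held 2 loose C/EBP matches and an HNF1 core word at -59 to -54 from the start, and Apoc1 held an HNF1 core word at -122 to -117. Each also held TGTTCT, the glucocorticoid receptor core word, at -174 to -169 in F13b and at -221 to -216, on the opposite strand, in Apoc1. Of 45 listed genes with a promoter in the table (42 of the 48 measured), 15 held GTTAAT, or 33.3%, against 6.46% of 27457 promoters of the same length. TTNNGNAA was found in 28 of 45 (62.2%) against 36.8% of all promoters, AGGTCA, the nuclear receptor core word, in 17 (37.8%) against 13.7%, and TGTTCT in 5 (11.1%) against 17.1%. F13b was among those with AGGTCA, on the opposite strand at -228 to -223. CCAAT was found in 14 (31.1%) against 34.3%, and TTGCGCAA, a special case of TTNNGNAA, in 0 of 45 against 0.164%. These shares describe the listed genes as a whole, of which 4 fell.

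The carriers bind hormones, vitamins, minerals or haem in plasma, and none of the 8 measured genes passed in limma, nor did any reach an unadjusted p under 0.05. The Welch test called 2 of them lower and the rank sum test 1, beside 6.36% and 6.54% of all genes. Their median difference was -0.061, and 6 of 8 were below 0 as deposited (5 with cyclic loess). Alb, serum albumin, ran from 13.35 to 13.46 (median 13.41) after vehicle and from 13.28 to 13.43 (median 13.37) after GSK932121A. The groups overlapped almost completely. Its difference was -0.032 ± 0.042 (SE), and the 95% confidence interval put treated livers at 92.2% to 104% of the vehicle level (limma, adjusted p = 0.712).

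Other carriers lowered in inflammation also differed by small amounts: Ttr, transthyretin, by -0.099, Rbp4, the plasma retinol carrier, by -0.065, and Ahsg, the mineral-binding fetuin-A, by -0.090. All 10 treated arrays of Ahsg lay below its vehicle mean, and 5 lay below every vehicle array. Gc, the vitamin D-binding protein, had the same count of 10 below the mean, with 3 below every vehicle array, and differed by -0.081. Ahsg (adjusted p = 0.0375) and Gc (0.046) were called by the Welch test, and Gc (0.035) by the rank sum test, but not in limma (0.245 and 0.289). Ambp, which encodes the haem-binding alpha-1-microglobulin together with the protease inhibitor bikunin, differed by -0.058.

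The carriers raised in inflammation had differences above 0 that did not pass. Hp, haptoglobin, which binds free haemoglobin, ran from 12.23 to 12.61 (median 12.40) after vehicle and from 12.33 to 12.61 (median 12.44) after GSK932121A. No treated array exceeded the vehicle range, though 9 of 10 lay above the vehicle mean. The difference was 0.081 ± 0.054 (SE; limma, adjusted p = 0.395). Hpx, the haem carrier hemopexin, differed by 0.057 ± 0.051.

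Most of the 9 measured apolipoproteins coat lipoprotein particles and direct their metabolism. In this class 2 fell (Apoc1 and Apoh) and none rose. The median difference was -0.11, and 6 of 9 were below 0, also with cyclic loess. In limma, 7.05% of all genes fell and 5.31% rose. Apoc1 lies in a cluster with Apoe and Apoc2 in the RefSeq annotation, yet these neighbours differed by less. Apoc2, the activator of lipoprotein lipase, differed by -0.11 ± 0.06 (SE; limma, adjusted p = 0.279) and Apoe, a ligand of the low-density lipoprotein receptor, by -0.055 ± 0.044 (adjusted p = 0.492), beside -0.33 ± 0.07 for Apoc1. This trio was set side by side after its values were seen, and the contrast within it was not tested.

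Apob, the structural protein of very-low-density lipoprotein, was nearly the same in both groups. Vehicle arrays ran from 12.89 to 13.10 (median 12.99) and treated arrays from 12.91 to 13.12 (median 13.00). The difference was 0.0063 ± 0.044 (SE), with a 95% confidence interval of 94.3% to 107% of the vehicle level (limma, adjusted p = 0.956). Of the apolipoproteins of high-density lipoprotein, Apoa2 differed by -0.16 and Apom, a carrier of sphingosine-1-phosphate, by -0.17, neither of which passed (limma, adjusted p = 0.348 and 0.125).

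Apoa4, an apolipoprotein of triglyceride-rich particles, had the largest difference above 0. Its vehicle arrays ran from 6.50 to 7.61 (median 7.17) and its treated arrays from 7.25 to 7.66 (median 7.37). All 10 treated arrays lay above the vehicle mean and 1 above every vehicle array, while the vehicle arrays scattered more (SD 0.31 against 0.12). The difference of 0.26 ± 0.10 (SE) did not pass (limma, adjusted p = 0.103), but it did without vehicle replicate 6 (0.0477) or vehicle replicate 12 (0.0389). Apoa5, which raises the clearance of triglycerides and is a neighbour of Apoa4, differed by 0.10 ± 0.08. Over the 6 measured apolipoproteins of triglyceride-rich particles, the differences ran from -0.33 to 0.26.

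The 15 coagulation genes included 2 that fell (F13b and Plg) and none that rose, beside 7.05% and 5.31% of all genes in limma. Their median difference was -0.072, with 10 of 15 below 0 as deposited and with cyclic loess. None of the 5 vitamin K-dependent zymogens passed in limma, where 0 had an unadjusted p under 0.05, and neither the Welch nor the rank sum test called any of them. F2, prothrombin, ran from 11.55 to 11.82 (median 11.67) after vehicle and from 11.45 to 11.74 (median 11.61) after GSK932121A. Of its treated arrays, 3 lay below every vehicle array. The difference was -0.072 ± 0.052 (SE; limma, adjusted p = 0.439).

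F7, which starts the extrinsic pathway with tissue factor, differed by -0.15 ± 0.12 (SE), with the largest scatter of any member among vehicle arrays. F9, the haemophilia B factor, differed by -0.13 ± 0.08, F10, which forms the prothrombinase with factor V, by 0.027 ± 0.055, and Proc, the anticoagulant protein C, by -0.080 ± 0.069. The 3 contact-system genes were F11 (-0.12), F12, the Hageman factor (-0.053), and Klkb1, plasma prekallikrein (-0.14), all short of the threshold in limma (adjusted p = 0.372, 0.613 and 0.307). F5, the cofactor of factor Xa, differed by 0.11 ± 0.06, with 3 of 10 treated arrays above every vehicle array (adjusted p = 0.25). Vtn, the adhesion protein vitronectin, differed by -0.052.

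Fibrinogen is assembled from an alpha, a beta and a gamma chain, encoded by Fga, Fgb and Fgg, neighbouring genes that respond to interleukin-6. Fga ran from 11.81 to 12.48 (median 12.15) after vehicle and from 12.00 to 12.49 (median 12.17) after GSK932121A. Fgb ran from 11.86 to 12.37 (median 12.14) and from 11.90 to 12.48 (median 12.19). Fgg ran from 12.79 to 12.99 (median 12.95) and from 12.76 to 13.11 (median 12.96). The medians of the groups thus nearly coincided for all 3 chains, while 1, 2 and 4 treated arrays, respectively, exceeded every vehicle array. Differences were 0.096 ± 0.080, 0.072 ± 0.076 and 0.028 ± 0.052 (SE; limma, adjusted p = 0.516, 0.628 and 0.809), and the 95% confidence intervals reached at most 120%, 117% and 110% of the vehicle level.

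The upstream sequences of the fibrinogen genes and Alb, from the same source and with the same capitals, are shown because these genes carry the best-known acute-phase and albumin promoters. They lie at chr2:170671919-170672168, plus strand (the first of 2 listed starts), chr2:170700876-170701125, minus strand, chr2:170652833-170653082, plus strand, and, for Alb, chr14:17906980-17907229, minus strand.
Fga: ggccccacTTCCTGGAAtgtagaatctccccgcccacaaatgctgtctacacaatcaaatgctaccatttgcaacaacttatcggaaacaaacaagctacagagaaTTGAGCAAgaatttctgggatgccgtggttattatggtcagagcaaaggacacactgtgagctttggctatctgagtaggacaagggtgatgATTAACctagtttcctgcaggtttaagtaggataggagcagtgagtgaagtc
Fgb: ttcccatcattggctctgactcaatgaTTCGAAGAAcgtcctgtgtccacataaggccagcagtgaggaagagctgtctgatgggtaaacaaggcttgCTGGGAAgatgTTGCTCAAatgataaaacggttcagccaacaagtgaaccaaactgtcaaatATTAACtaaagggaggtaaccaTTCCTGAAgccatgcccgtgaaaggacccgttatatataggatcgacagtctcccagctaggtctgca
Fgg: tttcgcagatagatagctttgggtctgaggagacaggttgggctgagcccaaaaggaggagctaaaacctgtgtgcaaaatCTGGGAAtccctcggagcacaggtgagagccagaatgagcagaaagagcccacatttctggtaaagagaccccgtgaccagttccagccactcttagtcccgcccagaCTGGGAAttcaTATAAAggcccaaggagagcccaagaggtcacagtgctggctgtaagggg
Alb: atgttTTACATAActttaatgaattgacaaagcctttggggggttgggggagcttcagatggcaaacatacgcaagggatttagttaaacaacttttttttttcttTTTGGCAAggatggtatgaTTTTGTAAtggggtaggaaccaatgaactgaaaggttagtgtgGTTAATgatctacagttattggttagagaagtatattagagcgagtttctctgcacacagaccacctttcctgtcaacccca

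CTGGGAA occurred 2 times in Fgg, at -169 to -163 and -61 to -55, and once in Fgb, at -152 to -146, and it occurred in 12 of 45 listed genes (26.7%) against 9.33% of all promoters. TTCNNNGAA occurred in Fga at -242 to -234 and in Fgb at -223 to -215, in 8 of 45 genes (17.8%) against 7.52%. An HNF1 core word was found in Fga (-52 to -47), Fgb (-90 to -85) and Alb (-82 to -77), as in F13b and Apoc1. TATAAA was found in Fgg at -50 to -45, and in 7 of 45 genes (15.6%) against 13.1% of all promoters. Among the genes that fell and whose sequences are not shown, Plg held CTGGGAA at -245 to -239. It also held an HNF1 core word at -67 to -62, and Apoh held TTCNNNGAA at -218 to -210. Thus the genes that fell and the genes that did not pass held some of the same words.

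The chain genes were then compared as ratios within each array, which any common shift of an array leaves unchanged. Of 8 pairs of genes that share a protein, complex or family, none passed a two-sided permutation test of 100000 resamples after adjustment over the pairs. The ratio of Fga to Fgb differed by 0.024 ± 0.045, that of Fga to Fgg by 0.068 ± 0.056 and that of Fgb to Fgg by 0.044 ± 0.056 on the log2 scale (SE; adjusted permutation p = 0.802, 0.516 and 0.74). The ratio of C8a to C8b, chains of the complement protein C8, differed by 0.0048 ± 0.038 (adjusted permutation p = 0.901).

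Between animals, the levels of the fibrinogen chain genes varied together in the treated group. Correlations were computed only within the pairs above, so whether this was particular to the chains was not tested. Fgb was highest in replicates 16, 20 and 17 of the treated arrays, and so was the complement gene C9 (12.23, 12.05 and 12.13). Among the 10 GSK932121A arrays, Fga and Fgb correlated at r = 0.875 (Spearman's rho = 0.879), Fga and Fgg at r = 0.901 (rho = 0.891), and Fgb and Fgg at r = 0.924 (rho = 0.903). Permutation p-values of r, adjusted over the 16 correlations computed, were 0.00331, 0.00232 and 0.00232 (unadjusted 0.00062, 0.00029 and 0.00023), and those of rho were 0.00892 for each pair (unadjusted 0.00171, 0.00112 and 0.00073). Without the 2 arrays farthest from the median of the first gene, r was 0.79, 0.829 and 0.894, and only the last passed (adjusted permutation p = 0.0286; 0.0612 and 0.0606 for the others). With 8 arrays left, r stayed of similar size and the unadjusted permutation p was 0.0153, 0.0114 and 0.00179. The treated values of Fga also left a gap, with 4 arrays at 12.41 or more and the other 6 at 12.20 or less, so these r partly compare 4 arrays with 6.

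Among the 12 vehicle arrays, r was 0.765 for Fga and Fgb (rho = 0.734; adjusted permutation p = 0.00997 and 0.0288, unadjusted 0.00372 and 0.009), 0.459 for Fga and Fgg (rho = 0.35; adjusted permutation p = 0.216 and 0.405, unadjusted 0.135 and 0.267) and 0.176 for Fgb and Fgg (rho = 0.0769; adjusted permutation p = 0.628 and 0.852, unadjusted 0.588 and 0.817). Without the 2 arrays farthest from the median these became 0.632, 0.03 and -0.382, and the relation of Fga and Fgb no longer passed with 10 arrays left (adjusted permutation p = 0.155). The difference between the groups in the correlation of Fgb and Fgg, tested after its values were seen by swapping arrays between groups, had a permutation p of 0.0113, or 0.0902 adjusted over the 8 pairs. That of Fga and Fgg had a permutation p of 0.0242 (adjusted 0.0968). The correlations were therefore not shown to differ between the groups.

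**Figure D3:**
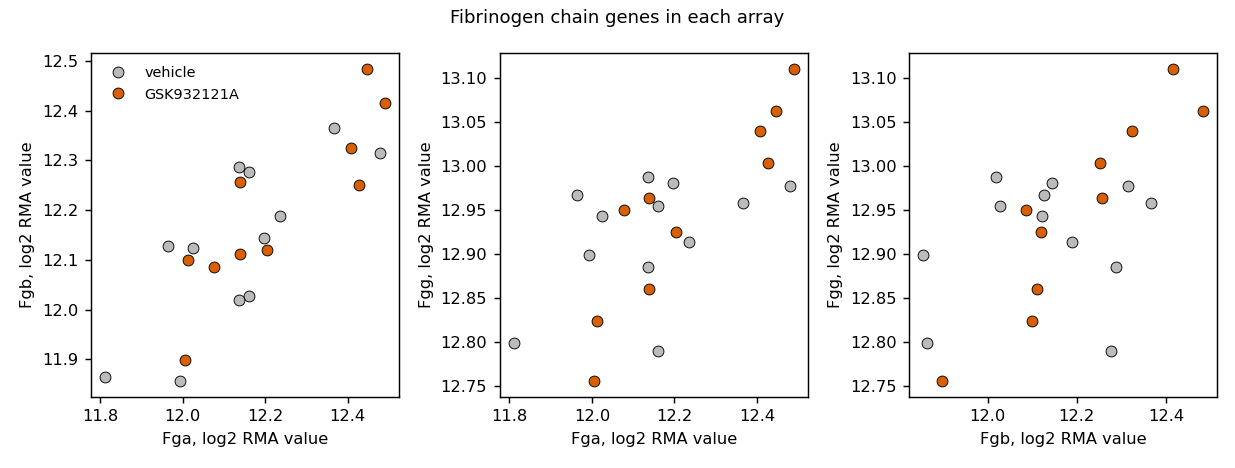
Log2 RMA values of the fibrinogen chain genes plotted against each other, 1 point per array, with vehicle in grey (n = 12) and GSK932121A in orange (n = 10). From left to right r is 0.875, 0.901 and 0.924 among treated arrays and 0.765, 0.459 and 0.176 among vehicle arrays, and no pair was shown to differ in r between the groups (lowest adjusted permutation p = 0.0902).

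Protease inhibitors of plasma limit clotting, fibrinolysis and tissue proteases, and none of the 6 measured genes passed in limma, although Serpinf2 alone reached an unadjusted p under 0.05 (1 of 6) and was the only one called by Welch and rank sum tests. Those 2 tests called 6.36% and 6.54% of all genes lower. The median difference of the 6 inhibitors was -0.027, with 4 of 6 below 0 as deposited and 2 of 6 with cyclic loess. Serpina1, alpha-1-antitrypsin, ran from 8.13 to 8.39 (median 8.32) after vehicle and from 8.16 to 8.37 (median 8.26) after GSK932121A. The treated arrays lay entirely within the vehicle range. Its difference was -0.023 ± 0.048 (SE; limma, adjusted p = 0.839), and that of Serpinc1, antithrombin, was -0.032 ± 0.049.

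Serpinf2, which encodes alpha-2-antiplasmin, the inhibitor of plasmin, ran from 11.36 to 11.56 (median 11.43) after vehicle and from 11.17 to 11.41 (median 11.36) after GSK932121A. All 10 treated arrays lay below the vehicle mean and 6 below every vehicle array. The difference of -0.11 ± 0.05 (SE) did not pass (limma, adjusted p = 0.142), but it passed by the Welch test (0.0243) and the rank sum test (0.0294). Plg, which encodes the zymogen of its target, differed by -0.17.

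Itih1 and Itih3 encode heavy chains of the inter-alpha-trypsin inhibitors, which are joined to bikunin and transferred to hyaluronan, while the related Itih4 product is not joined to bikunin. None of these 3 genes passed. Itih1 differed by -0.100 ± 0.049 (SE), with 9 of 10 treated arrays below the vehicle mean, Itih3 by 0.045 ± 0.051 and Itih4 by 0.036 ± 0.050 (limma, adjusted p = 0.21, 0.664 and 0.732). The ratio of Itih1 to Itih3 differed by -0.14 ± 0.05 between the groups (permutation p = 0.0128, adjusted 0.051) and that of Itih1 to Itih4 by -0.14 ± 0.04 (permutation p = 0.00645, adjusted 0.051). Both stood just short of the threshold, and both passed with cyclic loess (adjusted permutation p = 0.0466 each) or when some single arrays were left out. The ratio of Itih3 to Itih4 differed by 0.0086 ± 0.035 (adjusted permutation p = 0.901). Among the treated arrays Itih3 and Itih4 correlated at r = 0.648 (rho = 0.661), with a permutation p of 0.0407 and 0.0442 (adjusted 0.093 and 0.101), and at r = 0.629 without the 2 arrays farthest from the median.

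Complement proteins mark and lyse microbes, and none of the 10 measured genes passed in limma, although Masp2 alone reached an unadjusted p under 0.05 (1 of 10) and was the only one called by Welch and rank sum tests. Those tests called 6.36% and 6.54% of all genes lower. All 10 complement differences were below 0 as deposited, 9 after renewed quantile normalisation and 5 with cyclic loess. Their median as deposited was -0.062. C3, the protein on which all activation pathways converge, ran from 13.24 to 13.35 (median 13.29) after vehicle and from 13.17 to 13.36 (median 13.26) after GSK932121A. Its treated range was the wider and enclosed the vehicle range, with 3 treated arrays below every vehicle array and 1 above. The difference was -0.028 ± 0.044 (SE; limma, adjusted p = 0.766), with a 95% confidence interval of 92.1% to 104% of the vehicle level.

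Masp2 encodes the protease that starts the lectin pathway by cutting C4 and C2. Its values ran from 9.73 to 10.01 (median 9.89) after vehicle and from 9.41 to 9.84 (median 9.77) after GSK932121A. All 10 treated arrays were below the vehicle mean, and 4 were below every vehicle array. The difference of -0.17 ± 0.06 (SE) stood just short of the threshold (limma, adjusted p = 0.0605), and it passed by the Welch test (0.0406), the rank sum test (0.0498) and with an intensity trend and robust settings (0.0487). Masp1, the related protease of the same pathway, differed by -0.0066 ± 0.075. The ratio of Masp1 to Masp2 differed by 0.16 ± 0.08 (SE; adjusted permutation p = 0.212), so the 2 genes were not shown to differ in their change.

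The terminal components, which form the membrane attack complex, all differed by less than 0.1: C5 by -0.010, C6 by -0.090, C8a by -0.084, C8b by -0.088 and C9 by -0.041. C8a and C8b varied together within each group, at r = 0.776 among vehicle arrays (rho = 0.811) and r = 0.827 among treated arrays (rho = 0.721), each with an adjusted permutation p of 0.00997 for r (unadjusted 0.00333 and 0.00374). For rho the adjusted permutation p was 0.00892 and 0.0629 (unadjusted 0.00223 and 0.0236). Without the 2 arrays farthest from the median, r was 0.791 and 0.679 (adjusted permutation p = 0.0598 and 0.169). As for fibrinogen, no unrelated pair was set beside this one. Cfb, factor B of the alternative pathway, differed by -0.030, and C4bpa, a chain of the inhibitor that binds C4b, by -0.11.

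Set side by side, the classes differed little in their means. Each member was expressed relative to its vehicle mean and averaged over its class in each array, and no p is given for these averages, since the members were chosen with results known. GSK932121A arrays averaged -0.074 ± 0.088 (SD, n = 10) for apolipoproteins, -0.068 ± 0.075 for coagulation, -0.065 ± 0.136 for complement, -0.036 ± 0.050 for carriers and -0.031 ± 0.049 for inhibitors. Every class overlapped with the vehicle arrays, whose SD ran from 0.033 to 0.067, and between 1 treated array (carriers) and 5 treated arrays (coagulation, inhibitors and complement) lay below all of them. Complement had the widest treated range, from -0.24 in replicate 21 to 0.19 in replicate 16. In it 2 treated arrays, replicates 16 and 20, exceeded every vehicle array. Replicate 16 did so for apolipoproteins and coagulation too, and replicate 20 for inhibitors, while no treated array did so for carriers. With cyclic loess the class mean was 0.014 for inhibitors and -0.023 for coagulation.

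**Figure D4:**
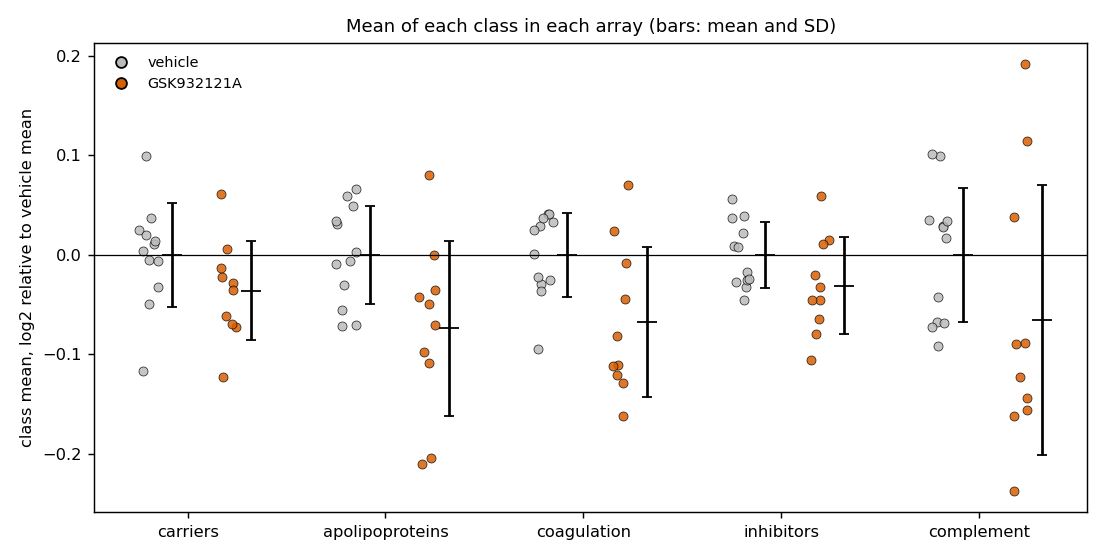
Mean of each class in each array, in log2 units relative to the vehicle mean of each gene (points), with mean and SD at the side of each group (vehicle grey, n = 12; GSK932121A orange, n = 10). Treated means lie between -0.074 and -0.031, and the treated arrays of complement spread widest (SD 0.136 against 0.067 among vehicle arrays).

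Grouped by their known behaviour in inflammation, the members showed no called change in limma, in which 5.31% of all genes rose and 7.05% fell. The 12 members known to rise were Hp, Hpx, Fga, Fgb, Fgg, C3, Cfb, C9, C4bpa, Serpina1, Itih3 and Itih4. Of these 12, 0 passed in limma and 0 had an unadjusted p under 0.05 in either direction. By the Welch or rank sum test 0 passed, and the median difference was 0.032 with 5 of 12 below 0. Of the 4 measured genes known to fall (Alb, Ttr, Rbp4 and Ahsg), 0 passed in limma and 0 had an unadjusted p under 0.05. Ahsg passed by the Welch test, and the median was -0.077 with 4 of 4 below 0. These counts cover members only. Among 43 other secreted liver proteins, described next, 3 rose in limma, including Lbp and Serpina3n, and 4 fell.

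Other secreted liver proteins, from a list of 51 genes of which 43 had a probe set of their own, were called about as often as all genes. Of these 43, 3 rose and 4 fell, beside 5.31% and 7.05% of all genes. Their differences had a median of -0.11, with 33 below 0, and 16.3% exceeded 1.2-fold, beside 13.3% of all genes and 21.8% of the genes averaging at least 7. Agt, angiotensinogen, averaged 10.65 ± 0.13 after vehicle and 11.44 ± 0.42 after GSK932121A (SD), a 1.74-fold rise (limma, adjusted p = 3.99e-05), with 10 of 10 treated arrays above every vehicle array. Lbp, the lipopolysaccharide-binding protein, rose 1.55-fold (adjusted p = 0.00775) and Serpina3n, an acute-phase serpin, 1.16-fold (0.0367). Pon3, a lipoprotein-bound lactonase, fell 1.39-fold (adjusted p = 0.000304), Igfals, the acid-labile subunit of the insulin-like growth factor complex, 1.27-fold (0.0123), and Mbl2, a mannose-binding lectin that activates the Masp proteases, 1.18-fold (0.0203). Clu, clusterin, the remaining fall, changed 1.12-fold (0.043).

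The tissue matched its label, with the hepatocyte markers Cps1, Asgr1, Tdo2 and Cyp2e1 at mean log2 values between 9.95 and 12.78 in both groups. These were the 4 measured of 6 listed. Cps1, the first enzyme of the urea cycle, rose 1.25-fold and Tdo2, a tryptophan-degrading enzyme, 1.45-fold (limma, adjusted p = 0.000789 and 0.00167). Asgr1 and Cyp2e1 differed the other way, by -0.085 and -0.17 on the log2 scale, and did not pass (limma, adjusted p = 0.624 and 0.228). Over all genes, 5.31% rose in limma. Of 6 Kupffer cell markers 1 rose (Cd163, 1.28-fold), of 2 measured endothelial markers 1 rose (Lyve1, 1.16-fold), and 0 of 5 stellate cell, 5 cholangiocyte and 6 leucocyte markers passed in limma. The mean over the Kupffer cell markers ran from 7.18 to 7.75 in vehicle and from 7.25 to 7.79 in treated arrays, and that over the leucocyte markers from 4.39 to 4.75 and from 4.44 to 4.80. Their part in the differences of the plasma protein genes was not tested.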

How the data were processed

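Expression was measured in 22 rat livers, 1 Affymetrix array each. The deposited values are log2 values made by the authors with RMA, which subtracts background, normalises between arrays and summarises probe sets, per the submitters' processing notes. No source used here gives the software, its version or how probe sets were defined. Between-array normalisation hides any shift common to all genes. Of 36685 probe sets, 18511 had 1 symbol in the platform annotation, 575 several and 17599 none, and only the first were used; the highest-mean probe set stood for a gene (no member had several). Genes were compared with limma 3.58.1 in R 4.3.3 (group only, eBayes, Benjamini-Hochberg over all genes), and ratios and correlations by permutation with numpy 2.4.6. The moderation in limma draws each variance towards the average gene, which widens the errors of genes with little scatter. Group and replicate came from the titles; no batch or litter is labelled, and groups share no replicate numbers. Members, classes and lists were chosen with earlier results of these data known. All members are named, with full values for those that passed and for Alb, Apob, Fga, Fgb, Fgg, Hp, C3, F2 and Serpina1; Apoa4, Masp2, Serpinf2, Clu and the promoter of Apoc1 were added after their values were seen. The limma fit and the permutation test were tested on simulated data. Alternatives are given in the closing section.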

Additional observations from a re-analysis of the deposited data

Results flagged for a closer look

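Within the 10 GSK932121A arrays, each of the 48 genes and 5 class means was examined for an array that stood apart from the rest, and 3 of these 53 sets of values held one. Chance alone marks about 1 in 20 such sets. Alb was lowest in replicate 14, at 13.28, where the next array was at 13.36. Hpx was highest in replicate 20, at 13.27, with the next array at 13.09. F12 was lowest in replicate 13, at 11.32, with the next array at 11.49. The vehicle group, with 12 arrays, was not examined in this way.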

How the results depend on the processing

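The number of plasma protein genes that fell, 4 in the main comparison, was 8 with the Welch test, 7 with the Wilcoxon rank sum test and 1 with 5 surrogate variables, where 1155, 1188 and 269 of all genes fell in place of 1280, and lay between 3 and 6 under the other alternatives, which were array scalings, keeping genes averaging at least 5 or at least 7, averaging or testing all probe sets, array weights, and limma's trend and robust options. Leaving out each array in turn gave 3 to 5 falls and 0 to 1 rises, the rise being Apoa4. The causes were not tested. Cyclic loess moved the class means of coagulation to -0.023 and of inhibitors, with a changed sign, to 0.014. It also brought the ratios of Itih1 to Itih3 (-0.15) and of Itih1 to Itih4 (-0.14) past the threshold, and leaving out single arrays did so for 5 and 7 of 22 arrays, with values from -0.17 to -0.12 and from -0.15 to -0.12. Without the 2 arrays farthest from the median, correlations that no longer passed were those of Fga and Fgb (0.632 in vehicle and 0.79 in treated arrays), Fga and Fgg (0.829, treated) and C8a and C8b (0.791 in vehicle and 0.679 in treated arrays). No paired analysis was possible because the groups share no replicate numbers. The pair of Itih1 and Itih2 could not be run, since Itih2 was not analysed here. Values near the top of the scale limit what can be seen for the brightest genes.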

Other observations

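The scatter between treated animals differed from gene to gene. The ratio of the SD among GSK932121A arrays to that among vehicle arrays had a median of 1.13 over the 48 genes, against 1.01 over all genes. The SD was larger in the treated group for 32 of 48 genes, against 9239 of the 18166 genes. As the members share the same arrays, they are not separate observations. The ratio was 2.60 for Apoc1, 2.08 for F11, 1.68 for Cfb, 1.66 for Ambp and 1.65 for Fgg. At the other end it was 0.399 for Apoa4, 0.577 for F10, 0.583 for Masp1 and 0.584 for Ttr. F11 ran from 9.54 to 9.89 in vehicle arrays and from 9.22 to 9.94 in treated arrays, with 4 treated arrays below and 1 above the vehicle range. These ratios were not tested.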
